A study of Mus musculus with 19 samples.

Results

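The difference between Mcm8 knockout and wild-type mouse hearts that was shared by both treatments was measured over all 19 of the 19 RNA sequencing libraries of the series. Members were taken by genotype: 8 knockout libraries were compared with 11 wild-type libraries in a model that held treatment as a second term. The 11 wild-type (Wt) libraries comprise 5 from PBS and 6 from LCWE treatment, and the 8 Mcm8 knockout (Mcm8Ko, Mcm8-/-) libraries comprise 3 from PBS and 5 from LCWE treatment. PBS is the saline control, and LCWE is the cell wall extract of Lactobacillus casei used to induce a Kawasaki disease-like vasculitis in mice. The study set out to examine how MCM8 protects blood vessels. The labels give heart tissue as the source for every group, and the dose, time after injection, age and strain background were not given in the sources used here. Whether each library is a different animal is likewise unstated, and the p-values below measure only the spread between these samples, which may be in part technical.

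MCM8 is a helicase of the MCM family that works with MCM9 in homologous recombination repair of broken DNA. Much of what follows concerns genes that interferon can induce, and whether any type of interferon had a part in their levels was not tested. In the type I interferon pathway, a cell that detects foreign or misplaced nucleic acid secretes interferon. The receptor IFNAR then activates Janus kinases, and the kinases phosphorylate STAT factors. STAT2 joins IRF9 in the factor ISGF3, which binds the interferon-stimulated response element, a pair of GAAA-type repeats in the promoters of interferon-stimulated genes.

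Levels below are CPM, counts scaled to a common library size. Differences are log2 fold changes of knockout against wild type, with the standard error of the fit. A gene is said to rise or fall only where edgeR's quasi-likelihood test gave a Benjamini-Hochberg adjusted p under 0.05 over the 14301 genes tested. Total counts per library ran from 11853233 to 16145911, so counting error mattered mainly for genes of a few CPM. Y-linked genes summed to 129.6 to 145.4 CPM in 1 of 11 wild-type and 4 of 8 knockout libraries and to at most 2.29 CPM in the others. Mcm8Ko LCWE replicate 2 held neither Xist nor Y-linked reads above background, with 10 Xist counts and 1.70 CPM of Y-linked genes. The ribosomal RNA gene Rn45s lay at 1257 to 2374 CPM in Wt LCWE replicates 1 to 3 and at 437 to 740 CPM in the other libraries.

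Of the 14301 genes, 6 passed the test (0.042%). Herc6, Ddx58, Gbp7 and Irf9 rose in the knockout (4 genes, 0.028%), and Mcm8 and Gfra4 fell (2 genes, 0.014%). All 4 genes that rose are known to be induced by interferon. Each of the 6 had the same direction in the PBS libraries and in the LCWE libraries when these were fitted apart. The additive fit that picked the 6 used the same libraries, so this is no independent evidence of direction. An unadjusted p under 0.05 was reached by 2496 genes (17.5%), of which 1425 were higher (9.96%) and 1071 lower (7.49%). At an adjusted p under 0.10 there were 48 genes (0.336%), 36 of them higher (0.252%) and 12 lower (0.0839%).

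The promoter sequences of Ddx58, Gbp7 and Herc6, which passed the test, and of interferon-stimulated genes that did not, are shown first. The response element of interferon-stimulated genes can be looked for in them, and the test did not use sequence. These sequences are from RefSeq on GRCm38.p6, written 5′ to 3′ along the gene. Capitals mark matches to GAAANNGAAA or GAAANGAAA on either strand (TTTCNNTTTC or TTTCNTTTC when read on the opposite strand), with 20 bases kept on each side where the annotation allowed. The element was searched in the 250 bases before each start, and the shorter form was added after the data were seen. Matches of both forms may overlap one another.
Ddx58, chr4:40239857-40239905, minus strand: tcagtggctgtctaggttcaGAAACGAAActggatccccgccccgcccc
Gbp7, chr3:142530263-142530312, plus strand: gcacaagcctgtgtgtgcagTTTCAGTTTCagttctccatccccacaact
Stat2, chr10:128270256-128270310, plus strand: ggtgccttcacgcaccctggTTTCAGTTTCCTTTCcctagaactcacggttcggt
Ifit1, chr19:34640765-34640833, plus strand: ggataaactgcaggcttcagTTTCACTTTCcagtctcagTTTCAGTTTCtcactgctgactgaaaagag
Ifit3, chr19:34583353-34583436, plus strand: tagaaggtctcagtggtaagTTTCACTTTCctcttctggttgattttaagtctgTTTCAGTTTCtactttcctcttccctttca
Ifit3b, chr19:34607749-34607832, plus strand: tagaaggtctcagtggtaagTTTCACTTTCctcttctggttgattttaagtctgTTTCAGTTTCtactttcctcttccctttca
Oas3, chr5:120777705-120777754, minus strand: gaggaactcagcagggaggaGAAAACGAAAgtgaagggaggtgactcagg
Isg15, chr4:156200855-156200966, minus strand: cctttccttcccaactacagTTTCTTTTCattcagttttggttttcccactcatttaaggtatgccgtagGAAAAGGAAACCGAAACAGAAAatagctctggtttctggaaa
Herc6, chr6:57580872-57580991, plus strand, no match in 250 bases: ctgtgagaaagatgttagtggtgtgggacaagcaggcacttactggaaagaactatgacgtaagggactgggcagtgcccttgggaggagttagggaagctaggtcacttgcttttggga

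The match of Gbp7 lay 53 to 44 bases before the start and that of Ddx58 60 to 52 bases before it. Isg15 had 3 matches of the longer form that overlap one another, and Ifit1 had 2. Isg15 did not pass the test (0.99 ± 0.35, edgeR adjusted p = 0.186). The stretches printed for Ifit3 and Ifit3b are identical. GAAANNGAAA was found in 14 of the 21 promoters available for a list of 30 interferon-stimulated genes (66.7%) and in 366 of 11292 promoters of all genes tested (3.24%). The list is of known interferon-stimulated genes, so its share is no result of these data. At an adjusted p under 0.10, the same form was found in 8 of 30 promoters of higher genes (26.7%) and 1 of 9 of lower genes (11.1%). In the 24 complex I genes, a list that lay lower, it was found in 2 of 20 promoters. The shorter form, the one matched by Ddx58, was found in 298 of 11292 promoters of all genes tested (2.64%), and either form in 626 (5.54%). Neither form was found in the windows of Herc6 and Irf9, which both rose, and the window of Irf9 is not printed. A match is only a description of the letters in the window.

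The targeted gene served to check the genotype labels. Mcm8 lay at 2.84, 3.43, 3.42, 4.54 and 4.08 CPM in the 5 Wt PBS libraries and at 0.910, 0.617 and 0.753 CPM in the 3 Mcm8Ko PBS libraries. In the 6 Wt LCWE libraries it ran from 2.60 to 5.19 CPM with a median of 4.23, and the 5 Mcm8Ko LCWE libraries had 0.155, 0.130, 0.749, 0.339 and 0.586 CPM. Every knockout library lay below every wild-type library. Mcm8 fell by 2.87 on the log2 scale (SE 0.28, edgeR adjusted p = 1.64e-05). With genotypes exchanged within treatments, an exact two-sided permutation test of log2(CPM + 1) gave p = 3.87e-05 for a difference of -1.68, the smallest p its 25872 splits allow. The fitted fold was -2.27 ± 0.29 in PBS and -3.36 ± 0.39 in LCWE libraries, and the difference between them had an unadjusted p of 0.0388 and an adjusted p of 0.599. The knockout values rest on 2 to 13 counts per library. Mcm8 was the only one of the 14301 genes whose knockout and wild-type libraries did not overlap (0.00699%).

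**Figure D1:**
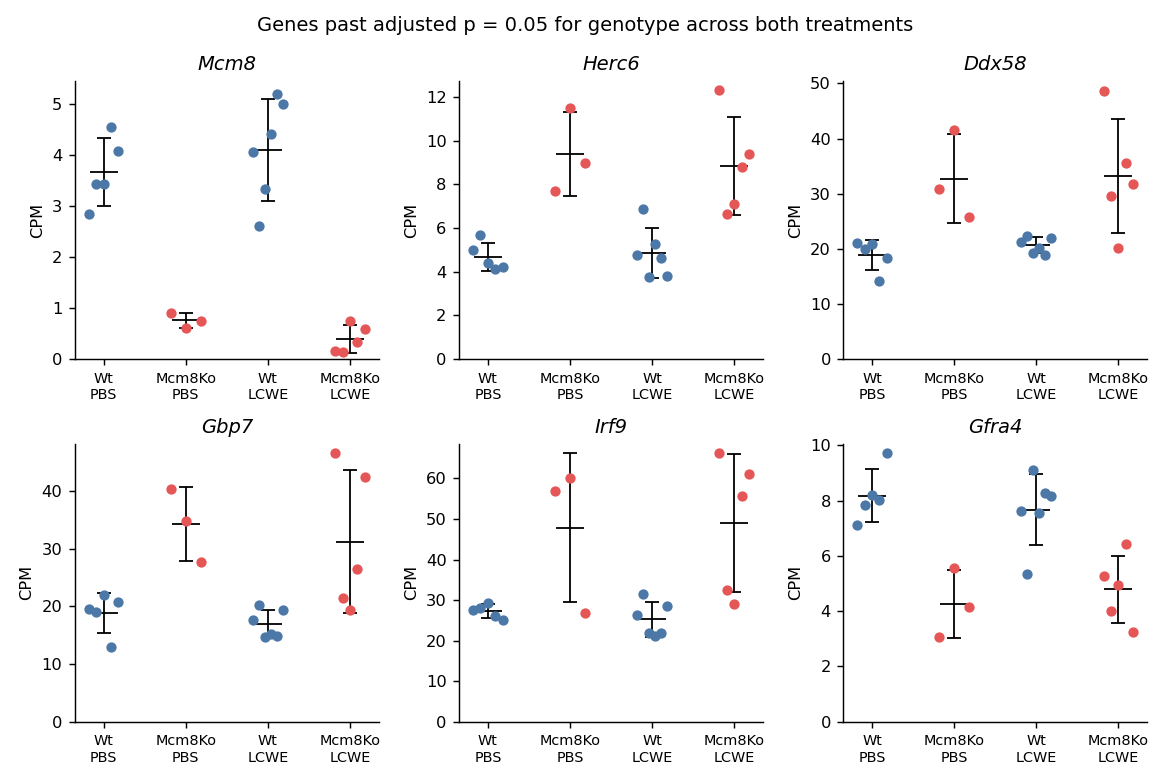
CPM of the 6 genes past an adjusted p of 0.05 in each library, by genotype and treatment. Points are libraries and bars are the group mean ± SD. Mcm8 separates the genotypes fully, and the other 5 genes each have at least 1 knockout library inside the wild-type range.

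Among the genes that rose, Herc6 had the smallest p. HERC6 is the main ligase that attaches the ubiquitin-like protein ISG15 to its targets in the mouse. Its gene lies on chromosome 6, 57581000 to 57664632 (GRCm38, GENCODE M21). Herc6 lay at 5.01, 5.67, 4.41, 4.14 and 4.23 CPM in Wt PBS and at 7.70, 11.5 and 8.96 CPM in Mcm8Ko PBS libraries. Wt LCWE libraries ran from 3.74 to 6.87 CPM (median 4.71), and Mcm8Ko LCWE libraries had 12.3, 6.62, 7.12, 8.81 and 9.37 CPM. In 7 of 8 knockout libraries Herc6 lay above the highest wild-type library, and the exception was Mcm8Ko LCWE replicate 2. Herc6 rose by 0.92 ± 0.14 (edgeR adjusted p = 0.0102), with 0.99 ± 0.19 in PBS and 0.86 ± 0.20 in LCWE libraries. The call held without any 1 of the 19 libraries, at edgeR adjusted p-values from 0.00185 to 0.0343.

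Ddx58 encodes RIG-I, the cytosolic sensor of uncapped viral RNA (chromosome 4, 40203773 to 40239828). Ddx58 lay at 21, 19.9, 20.8, 14.2 and 18.4 CPM in Wt PBS and at 30.8, 41.6 and 25.8 CPM in Mcm8Ko PBS libraries. Wt LCWE libraries ran from 18.8 to 22.4 CPM (median 20.7), and Mcm8Ko LCWE libraries had 48.7, 29.6, 20.2, 35.5 and 31.8 CPM. Again 7 of 8 knockout libraries lay above all wild-type ones, and here Mcm8Ko LCWE replicate 3 was the exception. Ddx58 rose by 0.73 ± 0.13 (edgeR adjusted p = 0.0415), with 0.79 ± 0.18 in PBS and 0.69 ± 0.17 in LCWE libraries.

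Gbp7 belongs to the guanylate binding proteins, interferon-induced GTPases that act on intracellular pathogens (chromosome 3, 142530342 to 142550149). Gbp7 lay at 19.5, 19, 22, 12.9 and 20.7 CPM in Wt PBS and at 40.4, 34.8 and 27.7 CPM in Mcm8Ko PBS libraries. Wt LCWE libraries ran from 14.7 to 20.2 CPM (median 16.4), and Mcm8Ko LCWE libraries had 46.5, 21.4, 19.3, 26.5 and 42.4 CPM. The 2 knockout libraries inside the wild-type range were Mcm8Ko LCWE replicates 2 and 3. Gbp7 rose by 0.87 ± 0.15 (edgeR adjusted p = 0.0415), with 0.86 ± 0.18 in PBS and 0.88 ± 0.22 in LCWE libraries. Genes of this family are similar in sequence and lie side by side, so how the counting divided their reads is uncertain.

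Irf9 encodes the DNA-binding subunit of ISGF3 (chromosome 14, 55603571 to 55610030). Irf9 lay at 27.6, 28.1, 29.4, 26.1 and 25.2 CPM in Wt PBS and at 56.9, 60.0 and 26.8 CPM in Mcm8Ko PBS libraries. Wt LCWE libraries ran from 21.1 to 31.6 CPM (median 24.1), and Mcm8Ko LCWE libraries had 66.3, 32.5, 29.1, 55.6 and 61.2 CPM. The knockout libraries fell apart into 5 at 55.6 CPM or above and 3 at 32.5 CPM or below. Irf9 rose by 0.90 ± 0.16 (edgeR adjusted p = 0.0467), with 0.80 ± 0.22 in PBS and 0.96 ± 0.21 in LCWE libraries. Its annotated start overlaps the end of Rnf31 on the same strand, which differed by 0.33 ± 0.08 (edgeR adjusted p = 0.12), so some reads can belong to either gene.

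The calls on Ddx58, Gbp7, Irf9 and Gfra4 lie near the threshold. With 1 library left out in turn, the calls on Ddx58, Gbp7 and Irf9 held in 5 of 19 cases each and that on Gfra4 in 4, with edgeR adjusted p-values up to 0.119 for Ddx58 and 0.145 for the others. Their direction was the same in all 37 alternative settings, as it was for Herc6, and these settings refit the same libraries.

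The interferon-stimulated genes as a list lay higher in the knockout under both treatments. All 30 listed genes were tested, and 30 of 30 had a fold above 0 (50.9% of all genes did). Their median was 0.98 (0.86 in PBS and 1.09 in LCWE libraries), against 0.0048 over all genes. Gbp7 alone rose, while 30 of 30 had an unadjusted p under 0.05. In both treatments fitted apart, 13 of 30 reached an unadjusted p under 0.05 (43.3%), against 195 of 13442 genes in the same direction (1.45%). The list was chosen with earlier results of these samples known, so it is no independent evidence of direction.

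**Figure D2:**
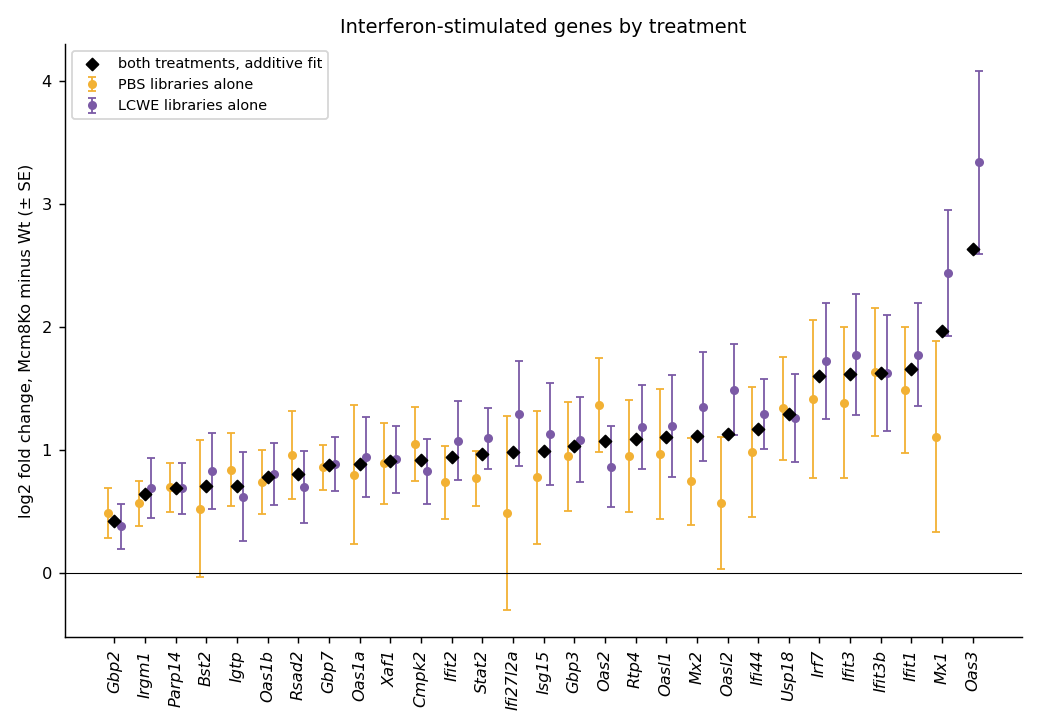
Log2 fold change of knockout against wild type for interferon-stimulated genes of the list, in PBS and LCWE libraries fitted apart (circles, ± SE) and in the additive fit (diamonds). All diamonds lie above 0, from Gbp2 at 0.42 to Oas3 at 2.63, and Oas3 was not tested in PBS libraries alone.

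The same list was read per library as the mean of log2(CPM + 1) over its 30 genes. Wild-type libraries lay between 2.72 and 4.20. Mcm8Ko PBS libraries had 4.34, 5.05 and 3.54, and Mcm8Ko LCWE libraries had 5.50, 4.01, 3.73, 5.07 and 5.02. So 5 of 8 knockout libraries lay above every wild-type library, and Mcm8Ko PBS replicate 3 and Mcm8Ko LCWE replicates 2 and 3 lay within the wild-type range. The lowest library of all was Wt PBS replicate 4, and without it the list median was 0.91. Without Mcm8Ko LCWE replicate 1, the highest library, it was 0.84.

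The interferon genes themselves were barely seen. Of 20 interferon ligand genes in the table, 4 had any count, the highest count was 2, and none passed the filter. Interferon receptors and Janus kinases had a median of 0.04 over 10 genes with 0 called. The receptor genes Ifnar1 (0.16 ± 0.09) and Ifnar2 (0.16 ± 0.07) differed little. The kinase gene Jak2 differed by 0.22 ± 0.08 (edgeR adjusted p = 0.187).

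The 7 STAT factor genes tested had a median of 0.13 with 0 called, and the 9 interferon regulatory factor genes had a median of 0.30 with Irf9 called. Stat2 lay at 41.3, 39.8, 34.6, 20.4 and 38.2 CPM in Wt PBS and at 64.8, 69.5 and 44.7 CPM in Mcm8Ko PBS libraries. Wt LCWE libraries had a median of 30.4 CPM with a maximum of 39.7, and Mcm8Ko LCWE libraries had 106, 39.8, 36.3, 81.2 and 75.6 CPM. Stat2 differed by 0.96 ± 0.18 (edgeR adjusted p = 0.0746), with 6 of 8 knockout libraries above every wild-type one. Irf7, the interferon-inducible factor that amplifies interferon transcription, differed by 1.60 ± 0.40 (edgeR adjusted p = 0.121), with 1.42 in PBS and 1.72 in LCWE libraries. Usp18, which removes ISG15 and dampens the receptor, differed by 1.29 ± 0.29 (edgeR adjusted p = 0.0876).

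Antiviral effectors were grouped into families after the data were seen, and in the Ifit, oligoadenylate synthetase, immunity-related GTPase and guanylate binding families Gbp7 alone rose. Of the Ifit genes, whose products bind viral RNA, 4 of 6 lay above 0 with a median of 1.28. Ifit1 lay at 9.43, 8.85, 8.59, 2.0 and 7.05 CPM in Wt PBS and at 17.9, 34.1 and 8.44 CPM in Mcm8Ko PBS libraries. Wt LCWE libraries ran from 4.40 to 11.8 CPM, and Mcm8Ko LCWE libraries had 42.9, 10.1, 7.87, 31.8 and 30.8 CPM. Ifit1 differed by 1.66 ± 0.34 (edgeR adjusted p = 0.0746), and the same 3 knockout libraries that were low in the list lay within its wild-type range. Ifit3 (1.62 ± 0.40) and Ifit3b (1.63 ± 0.37) are near-identical copies whose reads may have been divided arbitrarily.

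Oligoadenylate synthetases, which make the messenger that activates RNase L, were above 0 in 8 of 8 tested genes with a median of 1.07 and 0 called. Oas3 differed by 2.63 ± 0.58 (edgeR adjusted p = 0.0796), from a wild-type range of 0.134 to 1.01 CPM to a knockout range of 0.226 to 12.9 CPM. Immunity-related GTPases were above 0 in 9 of 9, median 0.79, with 0 called. Guanylate binding proteins were above 0 in 9 of 9, median 0.79, with Gbp7 called and Gbp5 at 0.79 ± 0.16 (edgeR adjusted p = 0.0746). The dynamin-like GTPase gene Mx1 differed by 1.96 ± 0.48 (edgeR adjusted p = 0.111), with 1.11 ± 0.78 in PBS and 2.43 ± 0.51 in LCWE libraries. Its interaction had an edgeR adjusted p of 0.746.

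Genes of cytosolic nucleic acid sensing and its signalling lay above 0 in 10 of 12 tested genes, with a median of 0.45, and Ddx58 rose. This list holds more than sensors, among them Mavs, Tbk1 and Irf3, and it shares Irf7 with the interferon-stimulated list. Ifih1, which encodes the RNA sensor MDA5, differed by 0.77 ± 0.16 (edgeR adjusted p = 0.0746), and in 7 of 8 knockout libraries it lay above every wild-type library. The DNA sensor gene Cgas differed by 0.42 ± 0.20 (edgeR adjusted p = 0.281) and its adaptor gene Sting1 by -0.10 ± 0.18 (edgeR adjusted p = 0.797). MHC class I and peptide loading genes lay above 0 in 11 of 12 with a median of 0.48 and 0 called, among them H2-T23 at 0.69 ± 0.17 (edgeR adjusted p = 0.109). MHC class II genes lay below 0 in 8 of 8 (7020 of all 14301 genes did) with a median of -0.42 and 0 called. None of the 8 had an unadjusted p under 0.05. Their summed level ran from 20.8 to 434 CPM in Mcm8Ko PBS and from 208 to 322 CPM in Wt PBS libraries. Over both treatments the median of that sum was 272 CPM in the knockout and 282 CPM in wild type.

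Of the 36 genes higher at an adjusted p under 0.10, 8 were in the interferon-stimulated list and 14 were in it or in the interferon families. The list holds 30 of the 14301 genes tested. The families were added after the data were seen, and their share of all genes was not counted. Of the 12 lower genes 0 were in either, which is too few genes for a contrast. Higher genes outside both, named after their values were seen, included the clock repressor gene Cry1 (0.69 ± 0.15) and the taurine transporter gene Slc6a6 (0.54 ± 0.11). Another was Tbx3 (0.56 ± 0.12), a transcription factor of the conduction system. All 3 had an edgeR adjusted p of 0.0746.

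Gfra4 was the one gene besides Mcm8 that fell. It encodes the receptor subunit for persephin, a ligand of the GDNF family. Gfra4 lay at 7.10, 7.85, 8.21, 8.01 and 9.72 CPM in Wt PBS and at 3.08, 5.55 and 4.14 CPM in Mcm8Ko PBS libraries. Wt LCWE libraries ran from 5.33 to 9.10 CPM (median 7.89), and Mcm8Ko LCWE libraries had 5.26, 4.02, 4.95, 6.44 and 3.25 CPM. In 6 of 8 knockout libraries it lay below every wild-type library. Gfra4 fell by 0.78 on the log2 scale (SE 0.14, edgeR adjusted p = 0.0467), with -0.95 ± 0.22 in PBS and -0.68 ± 0.19 in LCWE libraries. The other GDNF family receptors had 0 further calls, and 6 of the 7 tested, Gfra4 included, lay below 0.

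Gfra4 lies on the chromosome of the targeted gene, at chromosome 2, 131039632 to 131043088. That is 1.77 Mb from Mcm8 (chromosome 2, 132816141 to 132844197). Within 5 Mb of Mcm8, 71 genes were tested and 16 had an unadjusted p under 0.05 (22.5%), against 17.5% of all genes with a position. Within 20 Mb the share was 17.2%. Whether DNA linked to the targeted locus differs between the genotypes was not tested. A list of neighbours on chromosome 2 had a median of 0.01 over 24 tested genes with 0 called. The adjoining Trmt6, a transfer RNA methyltransferase subunit gene, differed by 0.20 ± 0.10 (edgeR adjusted p = 0.296), and Crls1, the cardiolipin synthase gene, by -0.26 ± 0.12 (edgeR adjusted p = 0.272).

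The 5 lower genes after Gfra4 by p among those of at least 5 CPM were Uros, Ttll1, Cmtm8, Fahd1 and 1810014B01Rik, all at an edgeR adjusted p of 0.0746. Uros, a heme synthesis enzyme gene, differed by -0.35 ± 0.07, from 26.6 to 33.7 CPM in wild type to 18.8 to 28.0 CPM in the knockout. Ttll1, a tubulin polyglutamylase subunit gene, differed by -0.43 ± 0.09, and Cmtm8 by -0.44 ± 0.09. In each of these 3 genes 7 of 8 knockout libraries lay below all wild-type ones. Fahd1, a mitochondrial oxaloacetate decarboxylase gene, differed by -0.43 ± 0.09, and 1810014B01Rik by -0.67 ± 0.14.

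Respiratory chain genes lay slightly lower as lists without a call. Complex I subunit genes were below 0 in 24 of 24 with a median of -0.21 (-0.11 in PBS and -0.30 in LCWE libraries), and 11 had an unadjusted p under 0.05 against 7.49% of all genes in that direction. Complexes II to V were below 0 in 26 of 26 with a median of -0.18, and 9 had an unadjusted p under 0.05. Ndufs4, a complex I subunit gene, differed by -0.34 ± 0.11 (edgeR adjusted p = 0.165), and its knockout range of 135 to 237 CPM overlapped the wild-type range of 174 to 329 CPM. Myoglobin (Mb), the oxygen store of heart muscle, differed by -0.33 ± 0.08 (edgeR adjusted p = 0.119). In bulk tissue, fewer cells of a type and less RNA per cell cannot be told apart.

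Over all genes, the PBS and LCWE libraries were fitted apart to see how far the genotype difference was shared. These fits have no library in common. PBS libraries alone gave 1 call (0.00732%), the apolipoprotein gene Apod, which rose by 2.23 ± 0.23 (edgeR adjusted p = 0.0247). LCWE libraries alone gave 1 call (0.00732%), Mcm8, which fell (edgeR adjusted p = 0.00905). The interaction of genotype and treatment gave 0 calls by edgeR (0.0%), with 1145 genes at an unadjusted p under 0.05 (8.01%) and 5 calls by DESeq2. Of 13442 genes in both fits, 63.8% had the same sign, and the rank correlation of folds across genes was 0.329, as a description since genes are not independent replicates. In LCWE libraries 5.87% of the genes tested there had an unadjusted p under 0.05, and of the 785 of them in both fits, 82.2% had the same sign in PBS libraries. In PBS libraries 17.5% of the genes tested there reached that level, and of the 2353 of them in both fits, 74.6% had the same sign in LCWE libraries. Of the 213 genes at that level in both, 195 had the same sign, 124 higher and 71 lower, and 18 had opposite signs.

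**Figure D3:**
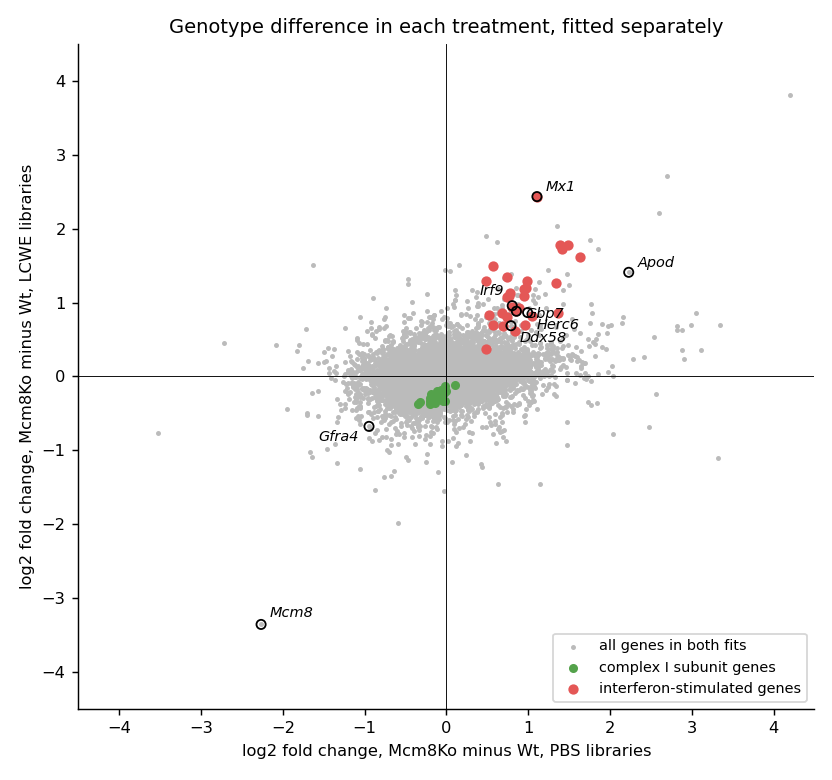
Log2 fold change of knockout against wild type in PBS libraries (x axis) and LCWE libraries (y axis), fitted apart, for the 13442 genes in both fits. Interferon-stimulated genes (red) all lie above 0 on both axes, Mcm8 and Gfra4 lie at the lower left, and complex I genes (green) lie just below 0 on the y axis.

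Lists of vessel cells, mitophagy, nitric oxide signalling and homologous recombination moved little in common. Endothelial genes had a median of 0.12 (0.24 in PBS and 0.04 in LCWE libraries), with 0 of 20 called. Capillary fatty acid handling genes had 0.11 (0.29 in PBS and -0.05 in LCWE libraries), with 0 of 12 called. Smooth muscle and pericyte genes had 0.03 (-0.14 in PBS and 0.16 in LCWE libraries), with 0 of 14 called. Mitophagy genes had a median of 0.15 (0.30 in PBS and -0.03 in LCWE libraries), with 0 of 18 called. In PBS libraries 8 of 18 had an unadjusted p under 0.05 and in LCWE libraries 0, against 17.5% and 5.87% of the genes tested there. The interaction had an unadjusted p under 0.05 in 7 of 18, against 8.01% of all genes. Pink1, the kinase that marks damaged mitochondria, differed by -0.02 ± 0.12 (edgeR adjusted p = 0.941). Bnip3, a mitophagy receptor gene, differed by 0.55 ± 0.23 (edgeR adjusted p = 0.24), with 1.22 ± 0.36 in PBS and 0.05 ± 0.17 in LCWE libraries. Nitric oxide and cGMP genes had a median of 0.04 with 0 of 13 called. The inducible nitric oxide synthase gene Nos2 differed by -0.36 ± 0.19 and the endothelial one, Nos3, by 0.13 ± 0.11. Homologous recombination genes had a median of -0.08 with 0 of 21 called, and Mcm9, which encodes the partner of MCM8, differed by -0.01 ± 0.12. Nnt, a mitochondrial enzyme gene that is broken in some laboratory substrains, differed by -0.13 ± 0.18.

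Some lists had a fold under 1 treatment that was small or opposite under the other. Clock genes had a median of 1.04 in PBS and 0.19 in LCWE libraries, and Per2 differed by 3.05 ± 0.48 and 0.86 ± 0.56 (interaction edgeR adjusted p = 0.587). Macrophage markers had a median of -0.26 in PBS and 0.36 in LCWE libraries. Fibroblast and matrix genes had -0.55 and 0.14, and fatty acid oxidation genes 0.42 and -0.14. None of these lists had a member called.

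Several measures moved with genotype beside these results. Refits with some of these measures as a covariate, or with some libraries left out, are given as values only. What part the measures had in the results was not tested. Leukocyte markers overlapped: the summed level of 20 macrophage markers ran from 429 to 1040 CPM in wild type and from 259 to 1670 CPM in the knockout, and 0 of 20 were called. Atrial markers lay higher in some knockout libraries, with summed levels of 757 to 1420 CPM in wild type and 896 to 2310 CPM in the knockout. Of 12 atrial markers 10 were tested, 9 lay above 0 and 0 were called in the additive fit. Their median was 0.89, with 0.44 over the 7 tested in PBS and 1.04 over the 8 tested in LCWE libraries. With the treatments fitted apart, 3 of 10 had an unadjusted p under 0.05 and the same sign in both, against 195 of 13442 genes. With the Y-linked level as a covariate, the atrial markers Mybphl, Dkk3, Sln and Myl7 were called as higher. The atrial light chain gene Myl7 lay at 28.5, 82.6 and 40.8 CPM in Mcm8Ko PBS replicate 2 and Mcm8Ko LCWE replicates 2 and 4, and at no more than 1.0 CPM in the other knockout libraries. Of these 3 libraries, PBS replicate 2 and LCWE replicate 4 were high in interferon-stimulated genes and LCWE replicate 2 was not. Nppa, a natriuretic peptide gene of the atria, differed by 0.77 ± 0.26 (edgeR adjusted p = 0.175).

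**Figure D4:**
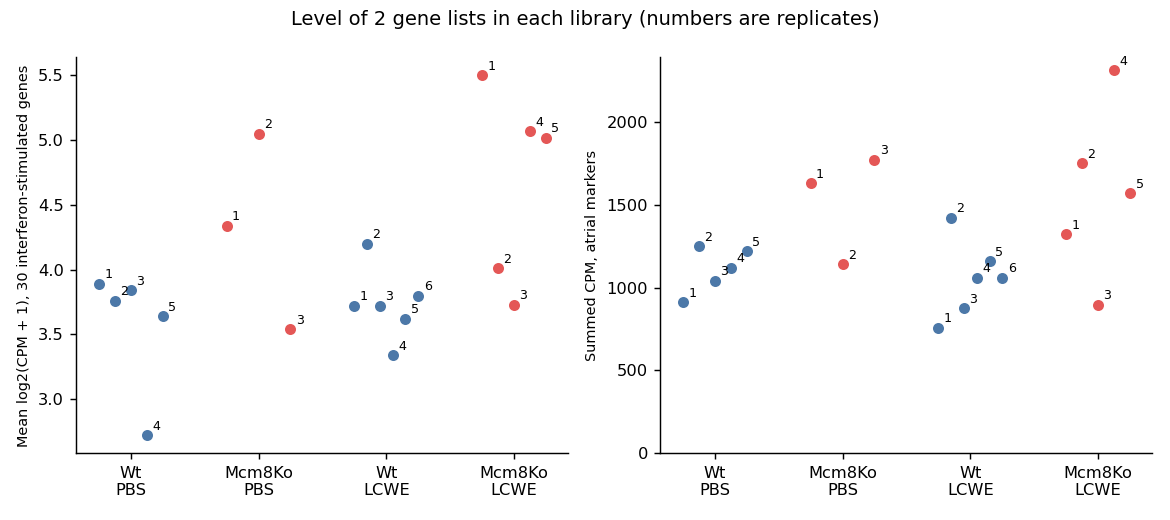
Mean log2(CPM + 1) of 30 interferon-stimulated genes (left) and summed CPM of atrial markers (right) in each library, with replicate numbers. On the left 5 of 8 knockout libraries lie above every wild-type library, and the libraries highest on the left are not in the same order on the right.

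Myh7, the slow myosin heavy chain gene, lay at 13300 to 20400 CPM in 4 of 8 knockout libraries, against at most 3220 CPM in wild type (2.37 ± 0.68, edgeR adjusted p = 0.151). Those 4 were Mcm8Ko PBS replicates 1 and 3 and Mcm8Ko LCWE replicates 4 and 5, of which PBS replicate 3 was low in interferon-stimulated genes. Rn45s differed by -0.53 ± 0.25 over all libraries. Without the 3 Wt LCWE libraries of high Rn45s, the interferon-stimulated list had 30 of 30 genes above 0 with a median of 1.02. In the libraries with Xist reads only, Y-linked genes lay at 0.302 to 2.29 CPM. The knockout libraries kept there were Mcm8Ko PBS replicates 2 and 3 and Mcm8Ko LCWE replicate 4, with list means of 5.05, 3.54 and 5.07. The list had 30 of 30 genes above 0 and a median of 1.03 in them against wild type, and Herc6 differed by 1.03 ± 0.18 without passing the test. That setting gave 4 calls, of which Mcm8 alone was shared with the 6 over all libraries. With the atrial level as a covariate the list had 30 of 30 above 0 and a median of 0.93, and Mcm8 was the only gene called.

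Each title holds a number, unexplained in the labels, and the ranges of these numbers are not spread evenly over the groups. Within the range from 100 to under 200, mean Herc6 lay at 5.13 CPM in 3 Wt LCWE and 8.68 CPM in 3 Mcm8Ko LCWE libraries. Under 100, it lay at 4.22 CPM in 2 Wt LCWE and 9.09 CPM in 2 Mcm8Ko LCWE libraries. Irf9 in the same comparisons lay at 26.7 and 42.6 CPM, and at 25.2 and 58.4 CPM. At 200 and above, with 1 PBS library of each genotype, Irf9 lay at 25.2 CPM in wild type and 26.8 CPM in the knockout. The interferon-stimulated list in the range from 100 to under 200, which holds 1 Mcm8Ko PBS library, had 30 of 30 genes above 0 and a median of 0.88. List means there were 4.34 in Mcm8Ko PBS replicate 1 and 5.50, 4.01 and 3.73 in Mcm8Ko LCWE replicates 1 to 3. Wild-type libraries reached at most 4.20, so Mcm8Ko LCWE replicates 2 and 3 did not lie above them.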

How the data were processed

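Whole-number gene counts by symbol, not normalized, were deposited by the authors in 1 table of 19 heart libraries. A whole-transcriptome kit was used for reverse transcription and preamplification, per the labels' protocols, which can raise the spread of low genes. The submitters' processing notes list STAR 2.7.8a, limma 3.36.160 and GRCm38 with no roles. The counter, annotation and strand setting were not given in the sources used here. All columns matched 1 sample by label, and replicates were numbered in accession order. A chi-square comparison of counts found no duplicated library.

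The filter filterByExpr (minimum count 10, minimum total 15) left 14301 of 25239 symbols. TMM scaling and the robust quasi-likelihood test of edgeR 4.0.16 (R 4.3.3) were fitted with treatment and genotype as additive terms. The PBS and LCWE libraries were also fitted apart, and the interaction in a model of 4 groups. P-values were adjusted over all genes tested, with a threshold of 0.05. CPM were computed here on the TMM scale. The procedure was tested on simulated counts. Coordinates are from GENCODE M21, which matched 24366 symbols, and promoters from RefSeq on GRCm38.p6, where several genes had no entry.

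The comparison and the 47 gene lists were chosen with earlier results of these data known, and 11 families were added after the data were seen. Lists are described by counts and medians, with no test. Named genes were Mcm8, up to 12 called genes each way by smallest p, with a mean of 5 CPM or more and the same sign under both treatments (6 by p, as values, where fewer than 3 were called), neighbours of Mcm8 and a fixed set, some of which are not reported here. Other genes were named as list members, or after their values were seen. Alternatives were RLE size factors, library totals, no filter or at least 5 CPM in 3 libraries, no robust step, DESeq2 1.42.0, limma-voom (limma 3.58.1) with and without library weights, equal weight of treatments, genotype alone, covariates (number range, Y-linked level, genes detected, 1 surrogate variable from sva 3.50.0), numbers from 100 to under 200 only, and each library left out. Those on Xist reads, Rn45s, the atrial level and a threshold of 0.10 were added after the data were seen.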

Additional observations from a re-analysis of the deposited data

Results flagged for a closer look

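A sample far from the rest of its group was found in 15 of 219 groups of 4 to 10 libraries examined over the genes named, and chance alone gives about 1 in 20. Wt PBS replicate 4 stood apart in 6 of the 15. It was low in the interferon-induced genes H2-T23 (33.8 CPM, others 47.1 to 52.2), Ifih1 (8.34 CPM, others 12.2 to 13.2), Isg15 (1.94 CPM, others 6.85 to 8.36) and Mx2 (1.73 CPM, others 3.04 to 3.55), and high in Nnt (960 CPM, others 459 to 569) and Trmt6 (10.2 CPM, others 7.79 to 8.29). Mcm8Ko LCWE replicate 1 was high in the interferon-induced genes Cmpk2 (52.7 CPM, others 18.5 to 25.2) and Samd9l (38.6 CPM, others 20.2 to 23.6). Wt LCWE replicate 2 was high in Oasl2 (25.2 CPM) and in Nppa (964 CPM). Wt LCWE replicate 5 was high in the atrial genes Myl4 (13.7 CPM, others 1.89 to 3.40) and Myl7 (7.58 CPM, others 0.157 to 1.28). Wt LCWE replicate 3 was high in Fahd1 (118 CPM) and Ttll1 (124 CPM), and Wt LCWE replicate 6 in Per2 (29.1 CPM).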

How the results depend on the processing

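The number of genes called moved with the setting, from 6. It was 2 with library totals, limma-voom with or without library weights, equal weight of the treatments, the number range, genes detected or 1 surrogate variable. It was 3 with at least 5 CPM in 3 libraries, where Mcm8 was not tested, and 3 without the Wt LCWE libraries high in Rn45s, 1 with the atrial level, 0 within numbers from 100 to under 200, 228 with DESeq2 and 48 at a threshold of 0.10. With the Y-linked level it was again 6, of which 2 were shared. The others there were Mybphl (2.95), Dkk3 (1.33), Sln (5.26) and Myl7 (4.92), all from the atrial list. Leaving out 1 library gave 2 to 170, with 170 without Mcm8Ko PBS replicate 2, 48 without Mcm8Ko LCWE replicate 3 and 9 without Mcm8Ko PBS replicate 3; each cause was not tested. Calls in PBS libraries, 1 in number, were 401 with DESeq2, 0 with limma-voom, 78 with library weights and 0 to 2664 with 1 library left out (2664 without Mcm8Ko PBS replicate 2). Calls in LCWE libraries, 1 in number, were 0 with the stricter filter, 21 with DESeq2 and 0 to 1 with 1 library left out. Interaction calls, 0 in number, were 5 with DESeq2, 21 with library weights and 0 to 481 with 1 library left out (481 without Mcm8Ko PBS replicate 2). The same-sign share of 82.2% was 76.8% with library totals, 77.8% without a filter, 85.9% with the stricter filter, 61.8% with library weights and 73.0% to 85.2% with 1 library left out. The Mcm8 fold was -2.73 and not called within numbers from 100 to under 200, and -3.01 to -2.71 with 1 library left out. The 30 interferon-stimulated genes kept 30 folds above 0 in all 37 alternatives, with medians from 0.84 to 1.14. Some folds changed sign, and of these B2m (0.475 in the additive fit), Nppa (0.77) and Rn45s (-0.53) had not been near 0. Within numbers from 100 to under 200 the folds that turned were -0.09 (B2m), 0.20 (Nnt) and 0.02 (Pink1). With Xist reads only they were -0.05 (Nos3) and 0.13 (Pink1). Mcm9 was 0.04 with library weights and 0.0 for genotype alone, Nppa -0.05 with the atrial level, and Pink1 0.01 with equal weights and 0.02 with the Y-linked level. Without the libraries high in Rn45s, Rn45s was 0.02 and Sting1 0.15, and Sting1 was 0.10 with library weights. With 1 library left out, Mcm9 and Pink1 ran from -0.06 to 0.04. No paired analysis was possible because the labels give each sample its own number. Depth limits Mcm8 in the knockout and the interferon ligands, whose highest count was 2.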
